A study of Ovis aries with 6 samples.

Results

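The alpha-arrestins and the pyruvate dehydrogenase kinases are 2 gene families with members that tie the supply of glucose to the choice of fuel in a cell. All 10 genes sought were found among the 26425 rows of an expression table from sheep cells: the alpha-arrestins VDUP1, ARRDC1, ARRDC2, ARRDC3 and ARRDC4, the kinases PDK1, PDK2, PDK3 and PDK4, and the glucose-sensing factor MLXIP. They were chosen by their symbols, and the set was picked on the contrast described here, because VDUP1 and PDK4 were lower and ARRDC4 was higher with MEOX2. Differences between the groups in these 10 genes are therefore given as values with no test of their own. Nothing is read from counts of those that passed a threshold.

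RNA sequencing covered 6 samples of Ovis aries cells prepared from the stromal vascular fraction of fat, the mixed fraction that holds adipocyte precursors; the labels call the cells adipocytes. The cells of 3 samples overexpressed MEOX2, a homeobox transcription factor of the mesoderm, and the other 3 samples, labelled NC, were the controls. Column names carried the prefix pHBLV in both groups. No agent, time point, animal or promoter driving MEOX2 is given in the sources used here, nor whether the samples came from separate cultures, so p-values cover the spread between these samples alone, and that spread may be technical.

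As background, VDUP1 is the older name of TXNIP, the thioredoxin-interacting protein. It binds thioredoxin and restrains glucose uptake by promoting the removal of glucose transporters from the cell surface. TXNIP and ARRDC4 are known in human and mouse cells as direct targets of MLXIP (also called MondoA), which with its partner MLX enters the nucleus when glucose phosphates accumulate. The PDK enzymes phosphorylate pyruvate dehydrogenase and switch it off, which holds pyruvate back from oxidation. PDK4 is the family member known to be induced by fasting, fatty acids and glucocorticoids.

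Each library held 11772772 to 12230863 reads assigned to genes, recovered as whole numbers from the deposited values. Levels are FPKM, read counts scaled by gene length and library size. MEOX2 itself stood at 152.7, 107.7 and 138.4 FPKM in MEOX2 samples 1 to 3, against 10.8, 10.1 and 9.03 FPKM in NC samples 1 to 3 (exact two-sided permutation test, p = 0.1, the smallest p that 3 against 3 samples allow). On the second principal component (22.2% of variance) NC sample 3 lay furthest out, with a loading of 0.74. Without it, the log2 changes given next were -0.72 for VDUP1, 0.53 for ARRDC4 and -0.84 for PDK4.

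Markers of mature fat cells moved with the groups. Of 13 in the table, 7 were tested, 4 fell (ADIPOQ, FABP4, PLIN1 and CIDEC) and none rose. The other 3 were not called by limma, with log2 changes of -0.76 for LIPE, -0.57 for PNPLA2 and 0.0046 for LPL. Of the 7, 6 had an unadjusted p under 0.05 in limma. The share of all genes tested with such a p is not given here, so nothing is read from that count. By limma voom 6 of the 7 were called, where 574 of all 13121 genes tested were. Those 6 included LIPE (limma voom adjusted p = 0.00153) and PNPLA2 (0.0189). ADIPOQ and FABP4 kept their calls when any library was omitted, and PLIN1 and CIDEC lost theirs (limma adjusted p up to 0.0872 and 0.0958). The summed level of the 13 was 133.8 to 154.7 FPKM in MEOX2 samples and 306.7 to 363.4 FPKM in NC samples, with LEP and RETN at 0 in every library. Their part in the differences of VDUP1, PDK4, ARRDC4 and the gene lists that follow was not tested. In bulk samples such as these, fewer cells of a type and less RNA per cell cannot be told apart.

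VDUP1 (ENSOARG00000020658, chromosome 1, 98336652 to 98340541, minus strand; the genome build is not given in the sources used here) was at 132.6, 146.7 and 141.2 FPKM in MEOX2 samples 1 to 3, against 245.4, 218.2 and 262.1 FPKM in NC samples 1 to 3. Every MEOX2 value lay below every NC value. The means were 140.2 ± 7.12 and 241.9 ± 22.2 FPKM in MEOX2 and NC samples (SD, n = 3 each), a ratio of 0.580. As a log2 change, taken after adding 1 to each FPKM, this was -0.78 (SE 0.09). Between 3923 and 8413 reads stood behind each value, so counting error alone (1.29%) was smaller than the variation between NC samples (9.17%).

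ARRDC4 (ENSOARG00000010116, chromosome 18, 7884509 to 7890714, minus strand), the closest functional counterpart of TXNIP in glucose transport, differed in the opposite direction. It was at 349.1, 325.4 and 327.7 FPKM in MEOX2 samples 1 to 3, against 238.7, 222.3 and 249.4 FPKM in NC samples 1 to 3. Again the groups did not overlap, with MEOX2 samples on the high side. The means were 334.1 ± 13.04 FPKM in MEOX2 samples and 236.8 ± 13.6 FPKM in NC samples (SD, n = 3 each), a ratio of 1.41, and the log2 change was 0.50 (SE 0.07).

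Because both genes were read in the same libraries, their ratio does not depend on scaling between libraries. ARRDC4 was 2.63, 2.22 and 2.32 times the VDUP1 level in MEOX2 samples 1 to 3, against 0.973, 1.02 and 0.951 times in NC samples 1 to 3. In FPKM, ARRDC4 thus exceeded VDUP1 in every MEOX2 sample, whereas the genes stood at about the same level in NC samples. Their summed level was 474.3 ± 6.63 FPKM in MEOX2 samples and 478.7 ± 35.8 FPKM in NC samples (SD, n = 3 each), a difference smaller than the spread of the NC samples. This sum, the order of both genes and the shares given next depend on model lengths, 951 bases for ARRDC4 and 2599 bases for VDUP1. In recovered reads, VDUP1 had 3923, 4746 and 4492 in MEOX2 samples 1 to 3, against 7653, 6941 and 8413 in NC samples 1 to 3. ARRDC4 had 3778, 3851 and 3814 reads in MEOX2 samples, against 2724, 2588 and 2929 in NC samples. VDUP1 made up 26.4% ± 1.62 of the summed FPKM of the 5 alpha-arrestins with MEOX2 and 44.7% ± 0.791 in NC (SD, n = 3 each), and ARRDC4 62.9% ± 1.70 with MEOX2 and 43.9% ± 0.789 in NC.

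**Figure D1:**
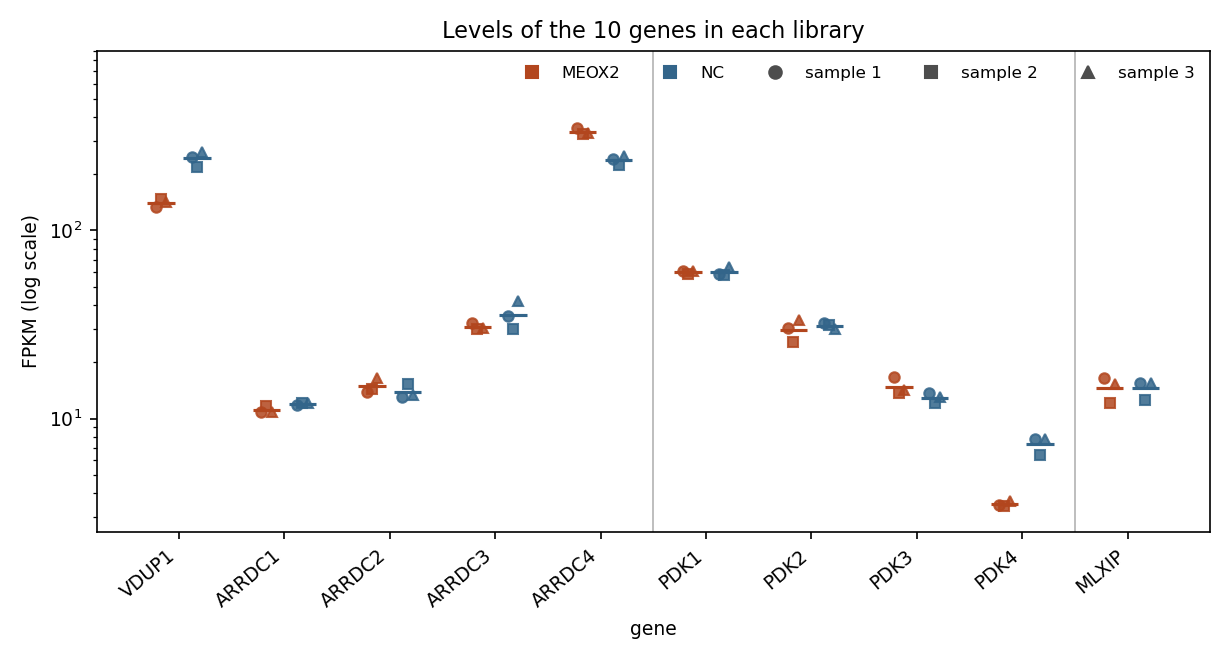
FPKM (log scale) of the 10 genes in each library, MEOX2 samples in red and NC samples in blue, with a mark for each sample number and a line at the group mean. VDUP1 and PDK4 lay lower in all 3 MEOX2 samples and ARRDC4 lay higher, while most of the other genes overlapped between groups.

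The other alpha-arrestins lay far below this pair. ARRDC3, an adaptor known in human and mouse cells for regulating beta-adrenergic receptors and body fat, was at 32.1, 29.9 and 30.3 FPKM in MEOX2 samples 1 to 3, against 35.2, 29.8 and 41.9 FPKM in NC samples 1 to 3. Its groups overlapped because NC sample 2 was lower than each MEOX2 sample. The log2 change of ARRDC3, -0.19 (SE 0.12), was -0.07 without NC sample 3 and -0.31 without NC sample 2. ARRDC2 was at 13.8, 14.3 and 16.5 FPKM in MEOX2 samples 1 to 3, against 12.99, 15.3 and 13.3 FPKM in NC samples 1 to 3, with interleaved values.

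ARRDC1, which recruits the budding machinery at the cell surface to release small vesicles, was at 10.9, 11.7 and 10.9 FPKM in MEOX2 samples 1 to 3, against 11.8, 12.1 and 12.1 FPKM in NC samples 1 to 3. These values did not overlap, yet the ratio of means was 0.930 and rested on 198 to 238 reads per library. Counting error of a single library was 6.68%, above the observed variation of 4.03% between MEOX2 samples and 1.48% between NC samples. ARRDC5, the remaining alpha-arrestin in the table and no member of the set, was at 6.48 ± 2.06 FPKM in MEOX2 samples and 6.01 ± 0.413 FPKM in NC samples (SD, n = 3 each).

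Of the kinases, PDK4 (ENSOARG00000003501, chromosome 4, 12768760 to 12781448, minus strand) had the lowest level in FPKM and the largest difference. It was at 3.48, 3.43 and 3.64 FPKM in MEOX2 samples 1 to 3, against 7.83, 6.38 and 7.83 FPKM in NC samples 1 to 3. The MEOX2 samples were close together and all below the NC samples. The means were 3.51 ± 0.111 FPKM in MEOX2 samples and 7.35 ± 0.841 FPKM in NC samples (SD, n = 3 each), a ratio of 0.478. PDK4 values rested on 104, 112 and 117 reads in MEOX2 samples 1 to 3, against 247, 205 and 254 reads in NC samples 1 to 3. The log2 change was -0.88 (SE 0.11) with a pseudocount of 1. This low gene is sensitive to that choice: its log2 change was -1.04 with a pseudocount of 0.1 and -0.53 with a pseudocount of 5.

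PDK1, the kinase known as a target of hypoxia-inducible factor, was at 60.9, 58.6 and 60.7 FPKM in MEOX2 samples 1 to 3, against 58.3, 57.9 and 63.9 FPKM in NC samples 1 to 3. Its group means differed by a ratio of 1.0004. PDK2, the most widely expressed kinase of the family in mammals, was at 30.2, 25.4 and 33.4 FPKM in MEOX2 samples 1 to 3, against 32.2, 31.3 and 29.9 FPKM in NC samples 1 to 3. The direction of its small log2 change, -0.07 (SE 0.11), turned to 0.03 without MEOX2 sample 2.

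PDK3, encoded on the X chromosome, was at 16.6, 13.6 and 14.1 FPKM in MEOX2 samples 1 to 3, against 13.7, 12.05 and 12.98 FPKM in NC samples 1 to 3. MEOX2 sample 2 lay inside the NC range. Its log2 change was 0.18 (SE 0.10). PDK3 was the only gene of the set with other rows inside its span, 2 in number, which held at most 1 read in any library.

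PDK4 supplied 3.26% ± 0.132 of the summed FPKM of the 4 kinases with MEOX2 and 6.58% ± 0.574 in NC (SD, n = 3 each). The summed level was 108.0 ± 6.07 FPKM in MEOX2 samples and 111.4 ± 3.57 FPKM in NC samples, so the difference in PDK4 made up little of the family's summed FPKM. In FPKM, the order PDK1, PDK2, PDK3, PDK4 held in all 6 libraries, and no neighbours in that order overlapped within a group. The PDK4 share and its place after PDK3 depend on model lengths, 2627 bases for PDK4 and 1485 for PDK3. In recovered reads, PDK4 had 247, 205 and 254 in NC samples 1 to 3, against 245, 219 and 238 for PDK3. In MEOX2 samples 1 to 3, PDK4 had 104, 112 and 117 reads, against 281, 252 and 257 for PDK3. Among the alpha-arrestins, ARRDC3, ARRDC2 and ARRDC1 kept the third to the last place in all 6 libraries. The first place was held by ARRDC4 in 4 libraries and by VDUP1 in 2, both of them NC samples, and the ranges of these genes overlapped in NC.

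**Figure D2:**
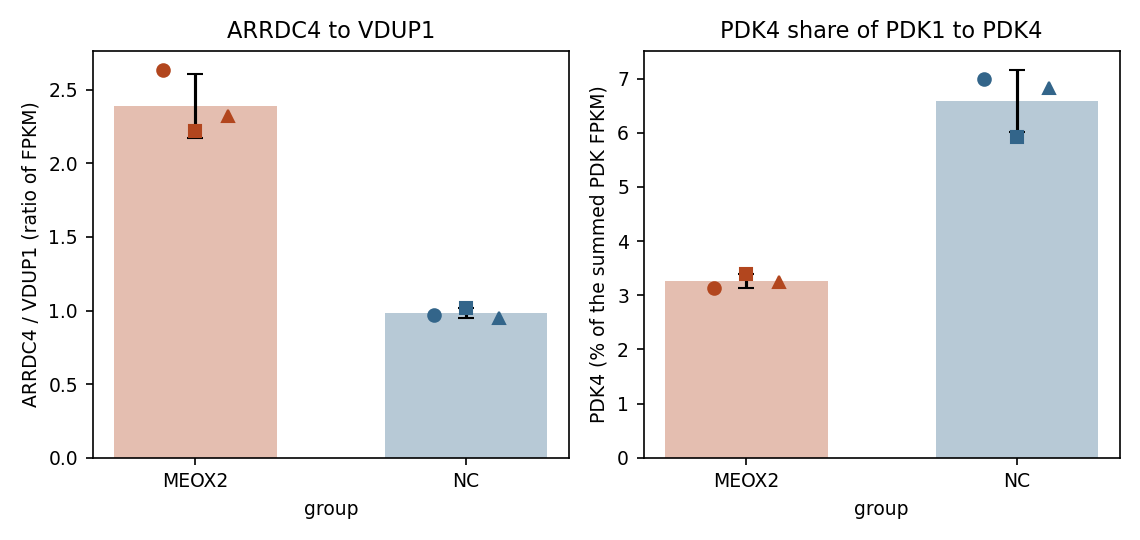
Ratio of ARRDC4 to VDUP1 FPKM (left) and PDK4 as a percentage of the summed FPKM of PDK1 to PDK4 (right), with bars for the group mean, error bars for the SD (n = 3) and a mark for each sample. The ratio was 2.39 ± 0.216 in MEOX2 samples and 0.981 ± 0.0345 in NC samples, and the PDK4 share 3.26% and 6.58%.

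MLXIP, the glucose-sensing factor upstream of VDUP1 and ARRDC4, was at 16.4, 12.1 and 15.3 FPKM in MEOX2 samples 1 to 3, against 15.5, 12.5 and 15.5 FPKM in NC samples 1 to 3. In both groups sample 2 was the lowest, and the group means were 14.6 ± 2.23 and 14.5 ± 1.70 FPKM in MEOX2 and NC samples (SD, n = 3 each). Transcript levels do not show where the MLXIP protein is in the cell, which is how it responds to glucose. MLXIPL (ChREBP), its paralog in liver and fat, was near the floor at 0 to 0.215 FPKM in MEOX2 samples and 0.167 to 0.238 FPKM in NC samples.

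All 10 genes passed the filter of a mean of at least 1 FPKM, which 13121 rows passed. In the limma fit over those rows, 3 of the 10 passed an adjusted p of 0.05, against 2.67% of all genes tested, and 4 of the 10 showed no overlap between the groups' values, against 18.9% of all genes tested. The first count was 2 without MEOX2 sample 3 or without NC sample 1, where ARRDC4 did not pass. Nothing is read from these counts, since the contrast chose the genes. The median log2 change of the 10 genes was -0.04, against -0.0027 over all genes tested, and their median absolute log2 change was 0.14, against 0.11 over all. The 7 genes that did not pass had log2 changes between -0.19 and 0.18. With single libraries omitted, the log2 change lay between -0.85 and -0.72 for VDUP1, between 0.45 and 0.53 for ARRDC4 and between -0.97 and -0.84 for PDK4.

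**Figure D3:**
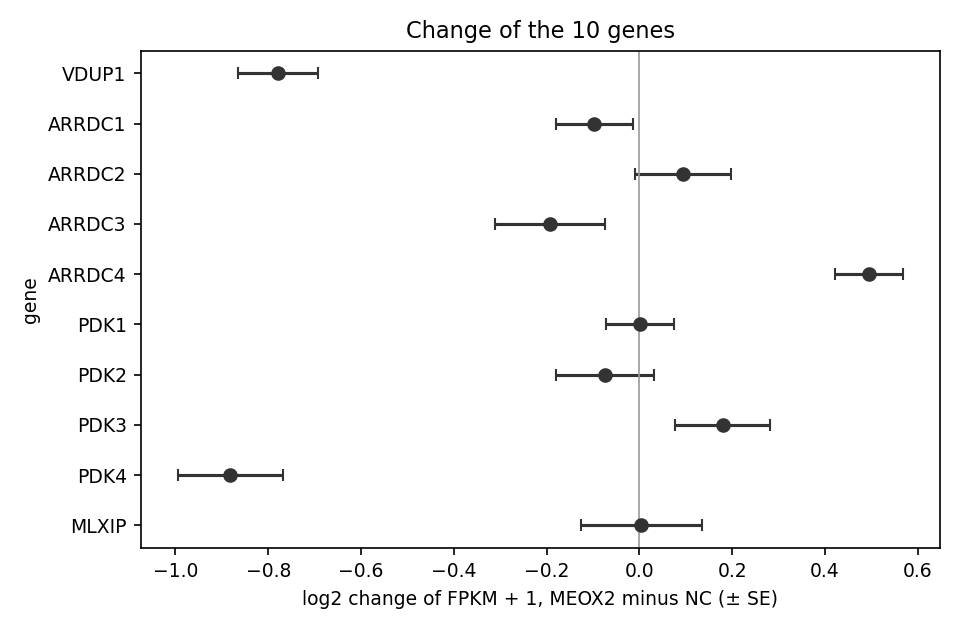
Log2 change of FPKM + 1 (MEOX2 minus NC) for the 10 genes, with the SE from the limma fit as bars. VDUP1 at -0.78 and PDK4 at -0.88 lie left of 0 and ARRDC4 at 0.50 right of it, while the other 7 lie between -0.19 and 0.18.

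The libraries of a group also differed among themselves. In NC sample 2, 7 of the 10 genes were at their lowest among the NC samples, against 36.5% of all genes tested, and in MEOX2 sample 2, 7 of the 10 were at their lowest among MEOX2 samples, against 35.6% of all. In NC, VDUP1, ARRDC3 and ARRDC4 were each highest in sample 3 and lowest in sample 2. Among MEOX2 samples the order differed between genes: in sample 1 ARRDC4 was at its highest and VDUP1 at its lowest.

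Some levels depend on the gene models. The table's lengths for 7 of the genes, from 951 bases in ARRDC4 to 2415 bases in MLXIP, are multiples of 3, as in models of coding sequence alone. Those of VDUP1, PDK4 and ARRDC3 (2599, 2627 and 3599 bases) are not. Levels set between genes therefore depend on these models.

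Next to ARRDC4 lay a row without a gene name (chromosome 18, 7881724 to 7883974), 535 bases beyond the 3′ end of the ARRDC4 model. It is listed on the plus strand, opposite to ARRDC4, but the strand setting of the counting is not given in the sources used here. Its level was 297.6, 324.2 and 288.0 FPKM in MEOX2 samples 1 to 3, against 233.4, 192.2 and 238.9 FPKM in NC samples 1 to 3. Its 3 MEOX2 values lay above its 3 NC values, and the log2 change was 0.46 (SE 0.10, limma adjusted p = 0.0493). Omitting any library ended that call (limma adjusted p up to 0.145). Whether these reads belong to the ARRDC4 transcript was not tested.

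Of 39 tested genes nearest to the 10, taking 2 on each side where present, 3 passed the threshold, where 2.67% of all genes tested did. Besides the row beside ARRDC4 these were another unnamed row, 75133 bases from ARRDC3, which rose by 0.76 on the log2 scale (limma adjusted p = 0.00623), and the imprinted gene PEG10, 823516 bases from PDK4, which rose by 0.79 (limma adjusted p = 0.0150). Omission of a library ended the call of PEG10 in 4 cases of 6 (limma adjusted p up to 0.0659). On the left of VDUP1, POLR3GL (10851 bases away) and ANKRD34A (25964 bases away) had log2 changes of -0.17 (SE 0.08) and 0.30 (SE 0.19). On its right, U1 (325971 bases away) and HIST2H2BF (507642 bases away) had log2 changes of 0.95 (SE 0.29) and -0.41 (SE 0.20). U1 rested on 0 to 5 reads per library. None of these neighbours of VDUP1 was called.

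The genes with profiles most like the 3 that chose the set were sought among 10343 named genes outside the set by the root-mean-square distance between centred log2(FPKM + 1) values over the 6 samples. Nearest to VDUP1 among these were TFPI, an inhibitor of tissue factor (distance 0.0509), the growth factor FGF7 (0.0652) and ST3GAL5, a ganglioside synthase (0.0776). PDK4, which as a member was not a candidate, lay 0.0772 from VDUP1, closer than ST3GAL5. Nearest to PDK4 among the candidates were S100G (0.0744), the aggrecanase ADAMTS5 (0.0758) and HIST1H2BD (0.0947), the last of them farther away than VDUP1, although S100G rested on 5 to 16 reads per library and HIST1H2BD on 2 to 11. Nearest to ARRDC4 were ADK, the adenosine kinase (0.0216), SLC18A2, a vesicular monoamine transporter (0.0451), and RHOJ, a small GTPase (0.0461), while VDUP1 and PDK4 were 0.643 and 0.691 away from ARRDC4. A short distance says only that the same libraries were high and low. The distances among VDUP1, PDK4 and ARRDC4 reflect the directions by which these genes were picked, and nothing is read from them. They also depend on the pseudocount of 1: with 0.1, the log2 change was -1.04 for PDK4 and -0.78 for VDUP1.

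**Figure D4:**
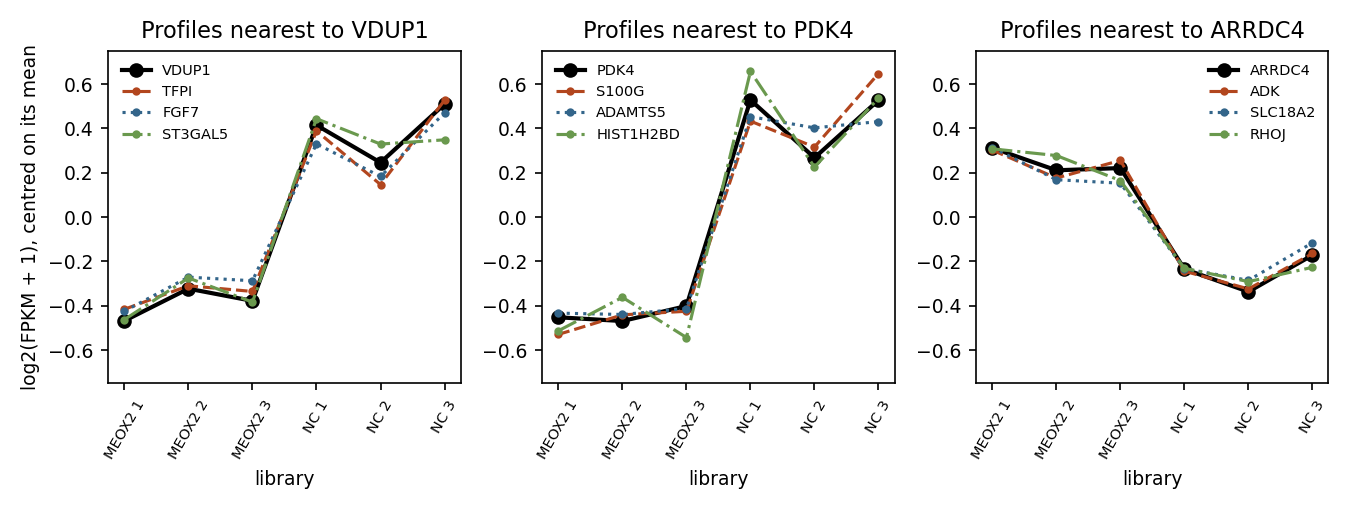
Log2(FPKM + 1) centred on its mean over the 6 libraries for VDUP1, PDK4 and ARRDC4 (black) and the 3 named genes outside the set nearest to each (coloured). The profiles of VDUP1 and PDK4 are low in the 3 MEOX2 libraries and that of ARRDC4 is high, and NC sample 2 dips in all 3 black lines.

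Around the 10 genes, 11 lists of partners, regulators, targets and alternative fates of pyruvate held 122 symbols, of which 110 were in the table and 97 were tested. Of these, 7 passed the limma threshold, 1 higher and 6 lower, against 1.51% of all genes tested higher and 1.16% lower. The count was 3 without MEOX2 sample 2, without MEOX2 sample 3 or without NC sample 1, 4 without MEOX2 sample 1 or without NC sample 3, and 5 without NC sample 2. The median log2 change of the 97 was -0.04, against -0.0027 over all genes tested. These lists were chosen with earlier results of these data known. Below, counts at an unadjusted p under 0.05 stand without the share of all genes tested, for lists and cell markers alike. Nothing is read from those counts. Calls by limma voom stand against 574 of the 13121 genes tested.

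Among 14 tested regulators of PDK genes, FOXO4, a forkhead factor of the FOXO group known to activate PDK4 in human and mouse cells, rose (44.8, 40.2 and 42.7 FPKM in MEOX2 samples 1 to 3, against 13.2, 14.4 and 14.2 FPKM in NC samples 1 to 3). Its log2 change was 1.54 (SE 0.08, limma adjusted p = 6.02e-05), and its groups lay far apart. PPARG, the fat cell nuclear receptor listed as PPARG2, fell (7.31, 8.14 and 8.83 FPKM in MEOX2 samples, against 13.5, 14.2 and 13.4 FPKM in NC samples), with a log2 change of -0.69 (SE 0.10, limma adjusted p = 0.00875). Both passed whichever library was omitted. The other 12 were not called. The glucocorticoid receptor NR3C1 had a log2 change of -0.38 (SE 0.11, limma adjusted p = 0.125) and passed in the voom fit (0.0130), E2F1 one of -0.34 and the hypoxia factor EPAS1 one of 0.23. FOXO1 and FOXO3, the forkhead factors best known for PDK4, had log2 changes of -0.22 (SE 0.13) and -0.03 (SE 0.10), and were chosen here after their values were seen.

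Of 8 tested glucocorticoid targets, 2 fell and 6 were not called. SGK1, a serine/threonine kinase, was at 32.0, 38.1 and 33.8 FPKM in MEOX2 samples 1 to 3, against 53.9, 53.1 and 55.7 FPKM in NC samples 1 to 3 (log2 change -0.64, SE 0.08, limma adjusted p = 0.00770). FKBP5, a co-chaperone of steroid receptors, was at 117.9, 125.3 and 117.9 FPKM in MEOX2 samples, against 160.5, 149.2 and 157.9 FPKM in NC samples (log2 change -0.37, SE 0.07, limma adjusted p = 0.0295). SGK1 passed whichever library was omitted, and FKBP5 in none of these 6 cases (limma adjusted p up to 0.156). TSC22D3, another classical target, pointed the opposite way at 0.26 (SE 0.11) and was not called, and NFKBIA and KLF9 had log2 changes of -0.28 and -0.19.

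Of 8 tested targets of the carbohydrate response, 2 fell and 6 were not called. KLF10, a zinc finger repressor, was at 30.6, 30.5 and 30.2 FPKM in MEOX2 samples 1 to 3, against 41.3, 38.5 and 43.5 FPKM in NC samples 1 to 3 (log2 change -0.42, SE 0.08, limma adjusted p = 0.0266). PFKFB3, which makes the activator of glycolysis fructose 2,6-bisphosphate, was at 34.7, 29.6 and 30.7 FPKM in MEOX2 samples, against 43.7, 44.9 and 41.3 FPKM in NC samples (log2 change -0.44, SE 0.09, limma adjusted p = 0.0342). Omission of a library ended the call of KLF10 in 5 cases of 6 and that of PFKFB3 in 4 (highest limma adjusted p 0.129 and 0.146). SCD, GPD1 and HK2 had log2 changes of 0.18, -0.26 and 0.12. The list's median was 0.08, although both called members were lower.

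In glucose uptake and phosphorylation, SLC2A1, the transporter GLUT1 that TXNIP is known to remove from the surface, fell. It was at 76.9, 81.4 and 85.7 FPKM in MEOX2 samples 1 to 3, against 100.8, 105.6 and 104.6 FPKM in NC samples 1 to 3 (log2 change -0.35, SE 0.07, limma adjusted p = 0.0444), and did not pass in any of the 6 cases with a library omitted (highest limma adjusted p 0.148). The other 6 tested members were not called, with log2 changes of -0.39 for SLC2A6, -0.08 for SLC2A10 and 0.05 for HK1.

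No gene was called by limma in the other 7 lists. In the pyruvate dehydrogenase complex and its phosphatases, none of 5 tested genes had an unadjusted p under 0.05 and none was called by limma voom. PDP1, a phosphatase that undoes what the PDK enzymes do, had a log2 change of 0.30 (SE 0.15), DLD one of 0.15 and PDHX one of -0.11. Of 9 other genes of pyruvate use, 1 had an unadjusted p under 0.05: PCK2, the mitochondrial PEP carboxykinase, at 129.5 ± 4.54 FPKM in MEOX2 samples and 99.9 ± 10.3 FPKM in NC samples (SD, n = 3 each; limma adjusted p = 0.0675, and 0.00821 by limma voom). ME1 and SLC16A1 had log2 changes of 0.12 and -0.15.

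Of 8 tested members of the MLX and MAX network, 1 had an unadjusted p under 0.05 and none was called by limma voom: MYC had a log2 change of -0.34 (SE 0.12), MLX one of -0.17 (SE 0.11) and MNT one of -0.15. The list of the thioredoxin system also held the inflammasome sensor NLRP3. Of the 9 genes in that list, 3 had an unadjusted p under 0.05 and none was called by limma voom. The 3 were PRDX1, TXNRD3 and NLRP3, with log2 changes of -0.20, 0.28 and -0.24. Of 11 partners and cargo of alpha-arrestins, 1 had an unadjusted p under 0.05 and none was called by limma voom: the beta-arrestin ARRB2 had a log2 change of -0.32, ARRB1 one of -0.29 and the ubiquitin ligase NEDD4 one of 0.15.

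Of 7 tested genes of fasting and fatty acid oxidation, 1 had an unadjusted p under 0.05. This was CPT1A, the gate of fatty acids into mitochondria, at 4.81 ± 0.410 FPKM in MEOX2 samples and 7.14 ± 0.476 FPKM in NC samples (SD, n = 3 each; limma adjusted p = 0.0519, and 0.00108 by limma voom). UCP2 and HADHA had log2 changes of -0.41 and -0.16. Of 11 tested genes of energy sensing, 1 had an unadjusted p under 0.05 and none was called by limma voom: SESN3 had a log2 change of -0.32, SESN1 one of -0.18 and DDIT4 one of 0.15.

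**Figure D5:**
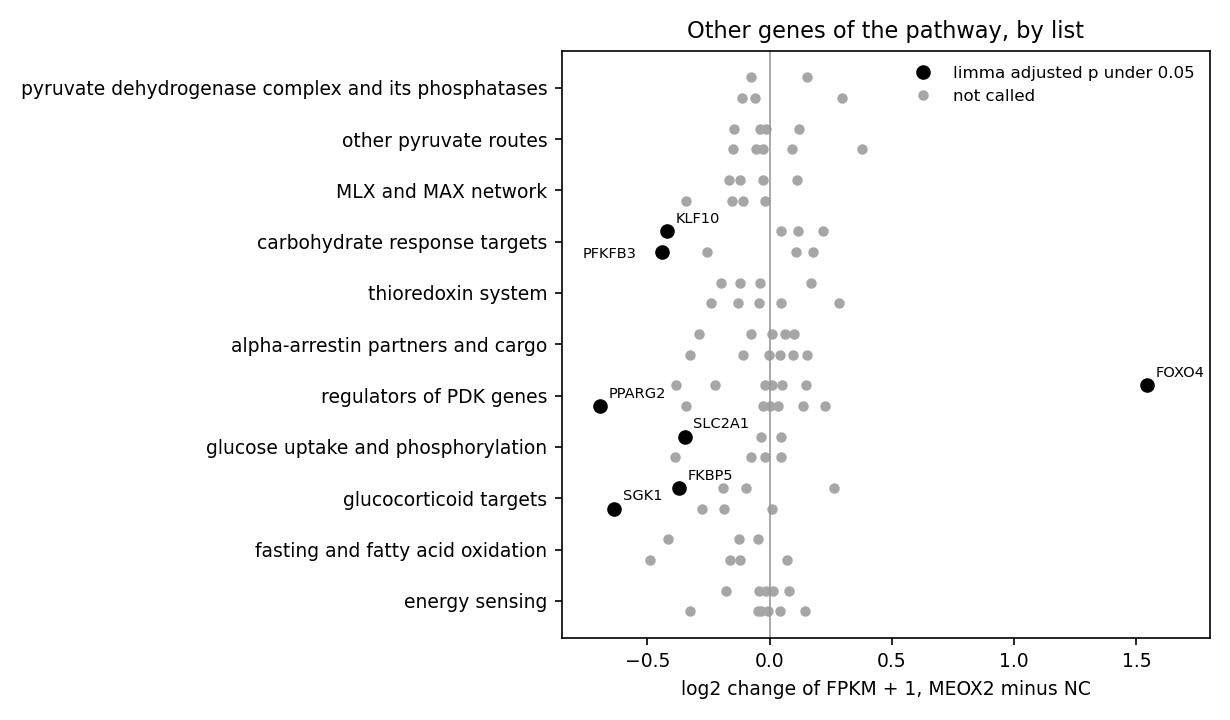
Log2 change of FPKM + 1 (MEOX2 minus NC) of the genes tested in each of the 11 lists, 1 point per gene, black where the limma adjusted p was under 0.05. The black points are FOXO4 at 1.54 and, below 0, PPARG2, SGK1, PFKFB3, KLF10, FKBP5 and SLC2A1.

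Markers of other cells were checked as well. Of 8 stromal progenitor markers in the table, 7 were tested and limma called none, with 4 at an unadjusted p under 0.05 and 1 (ENG) called by limma voom. Of those 4, ENG, NT5E and CD34 had log2 changes of -0.30 (SE 0.09), -0.23 (SE 0.07) and -0.54 (SE 0.19), and PDGFRA one of 0.21 (SE 0.09), each with no overlap between groups. PDGFRA was at 173.6 ± 4.65 FPKM in MEOX2 samples and 150.4 ± 15.4 FPKM in NC samples (SD, n = 3 each), and DLK1 was at 0 in every NC library and at 0 to 0.211 FPKM in MEOX2 libraries. The summed level of the 8 was 10502.8 to 12039.9 FPKM in MEOX2 samples and 9384.7 to 10881.9 FPKM in NC samples, mostly COL1A1.

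The leukocyte marker PTPRC was at 0 to 0.0223 FPKM in MEOX2 samples and 0 to 0.0424 FPKM in NC samples. The 6 macrophage and leukocyte markers in the table summed to 120.3 to 131.4 FPKM in MEOX2 samples and 113.1 to 120.7 FPKM in NC samples, mostly CD14, and none of 3 tested was called by limma, with 1 at an unadjusted p under 0.05 and 1 called by limma voom. Both of these were CD163, a macrophage scavenger receptor, with a log2 change of -0.48 (SE 0.15, limma adjusted p = 0.1702, and 0.0134 by limma voom). CD68 had a log2 change of -0.29 (SE 0.13) and CD14 one of 0.15 (SE 0.08), so the sum and 2 of the 3 tested markers differed in direction. The 4 endothelial markers summed to at most 0.273 FPKM in MEOX2 samples and 0.436 FPKM in NC samples, with CDH5 at 0 in every MEOX2 library. The 6 skeletal muscle markers summed to at most 0.811 FPKM in MEOX2 samples and 0.722 FPKM in NC samples, with MYOD1, MYOG and MYF5 at 0 in every library.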

How the data were processed

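Per the submitters' processing notes, the tools were HISAT2 2.0.5, DESeq2 1.20.0, CASAVA 1.8, featureCounts 1.5.0-p3 and fastp, with no roles given. The genome build, the annotation and the strand setting were not given in the sources used here. Libraries came from TRIzol-extracted RNA, per the labels' protocols. The authors deposited 1 table of FPKM values. FPKM times gene length gave whole multiples of 1 step per library (tolerance 0.001 of a read) for 100% of values. The implied library size was 0.967 to 1.02 times the recovered total, equal to size factors times the geometric mean of totals, so the deposited FPKM carries that scaling.

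Log2(FPKM + 1) of the 13121 rows with a mean of at least 1 FPKM was fitted with limma 3.58.1 in R 4.3.3 (intensity trend, no covariates), two-sided, with Benjamini-Hochberg adjustment over all rows and a threshold of 0.05. A change on this scale understates that of low genes. The fit was also run on simulated data that gave every gene the same dispersion and left out changes in genes with the fewest reads. Its outcome is not used here. Alternatives changed the pseudocount, filter, scaling, trend, robustness, replicate block or tool (limma voom on recovered reads), or left out a library. Other steps used pandas 2.3.3, numpy 2.4.6, matplotlib 3.10.9 and Python 3.11.15.

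The members and lists were chosen with earlier results of these data known. Named genes were MEOX2, the 10 genes, each list's called genes and up to 3 uncalled ones with the smallest p, and the 3 nearest profiles outside the set. Other genes in the text (ARRDC5, MLXIPL, FOXO1, FOXO3, the neighbours, and PDGFRA, COL1A1, DLK1, PTPRC, CDH5 and markers at 0) were named outside this rule, after their values were seen. Of the list symbols, 144 matched by symbol, 2 by a former symbol and 17 did not.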

Additional observations from a re-analysis of the deposited data

How the results depend on the processing

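No named gene that passed the threshold changed sign in the alternatives run. The count of 350 called genes became 194 without a filter on low genes and 574 with limma voom on recovered reads, an alternative chosen after seeing the data in place of voom with TMM scaling, which was not run. With single libraries left out it ranged from 117 (without NC sample 1) to 276 (without NC sample 3), and was 195 or fewer for each of the other libraries; fewer samples entered each of these fits. Of the 10 genes, 3 were called in 14 of the 16 alternatives and 2 in the other 2, both with a library left out. These counts support nothing, since the same contrast in the same samples chose the genes. The 7 called genes of the lists became 8 with the robust fit and 10 with limma voom. Their count was 6 when scaled to total reads, 5 without a filter, 4 without the trend and 3 with the replicate block. With single libraries left out it was 3 to 5. The cause was not tested. Whether sample numbers pair the groups cannot be told from so few samples. Correlations of deviations between samples of the same number were -0.07, 0.02 and -0.0042. With the replicate block 242 genes were called. Low read numbers limit PDK4, ARRDC1, ARRDC2 and PDK3 most.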
